A study of Mus musculus with 6 samples.

Results

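The genes described here encode the enzymes of the urea cycle and of amino acid breakdown, from the ammonia-fixing enzymes to the pathways that degrade tyrosine, tryptophan, histidine, glycine, methionine, proline and lysine. They were taken by symbol from a list of 42 genes, and 37 of them had a row of values among the 19505 genes measured. Ass1, Gls2, Glud1, Sds and Sdsl are not analysed here. The samples were 6 livers of male C57BL/6 mice aged 8 weeks. Of these, 3 came from WT mice and 3 from HMGB2-KO mice, labelled as knockouts of the gene Hmgb2. No treatment or surgery is named, and the labels do not say which part of Hmgb2 was deleted or in which cells. Each liver was read on 1 Clariom S mouse array, to screen for genes whose level goes with that of Hmgb2, a DNA-bending chromatin protein.

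The liver is the main site where amino acids are stripped of nitrogen, and hepatocytes turn the released ammonia into urea. Carbamoyl phosphate synthetase and ornithine transcarbamylase start the cycle in mitochondria, and the later steps take place in the cytosol. The carbon skeletons go on to glucose, ketone bodies or one-carbon units. Most of these enzymes are made by hepatocytes around the portal vein, and several are induced in fasting by glucagon and glucocorticoids.

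Values are log2 differences from a row baseline that is not known, with the median of every array set to 0. Livers can be compared for a given gene, but a gene's absolute level, or its level against another gene, cannot be read. Hmgb2 was at 0.47, 0.36 and 0.42 in WT livers 1 to 3 and at -0.66, -0.33 and -0.43 in HMGB2-KO livers 1 to 3. Every liver thus lay on the side its label gives, with a log2 fold change of -0.89 (SE 0.13) and an adjusted p of 0.645 in limma. Before centring, the array of WT liver 2 had a median of 0.26 against -0.05 to 0.01 on the others. Its amino acid catabolism genes had a median of 0.49 there against 0.03 to 0.26 on the others, and 0.23 after centring against 0.07 to 0.25. Olfactory and vomeronasal receptor genes had a median of 0.54 on that array before centring, against -0.11 to 0.01 on the others. This is above the median of the array, so centring on the median did not bring all kinds of genes level in WT liver 2. With the values as deposited every fold change is lower, and the median of all genes is -0.12 in place of -0.00.

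No amino acid catabolism gene passed the test between the genotypes. In limma 0 of 37 passed an adjusted p of 0.05, as did 0.00% of all genes tested, and 0 of 37 had an unadjusted p under 0.05, against 3.68% of all genes. Without moderation of the variances 0 passed the adjusted threshold and 1, Hpd, had an unadjusted p under 0.05, against 4.29% of all genes in that fit. The smallest adjusted p among the 37 was 0.994. HMGB2-KO was higher for 15 genes and lower for 22, so 40.5% were higher, against 49.5% of all genes higher and 50.5% lower. With the values as deposited 7 of 37 were higher, against 23.0% of all genes. Their median log2 fold change was -0.03 against -0.00 for all genes, or -0.15 against -0.12 as deposited and 0.00 against 0.02 after quantile normalization.

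The intervals show which array differences the fit could have missed with the arrays centred on their medians. They do not cover the choice of scaling, which moved the median of all genes to -0.12 as deposited. Hmgb2, the gene named as knocked out, itself read only -0.89, and how far an array difference matches that in RNA was not tested. Standard errors ran from 0.11 to 0.42 on the log2 scale, with a median of 0.14. For 35 of the 37 genes the 95% confidence interval lay within a 2-fold change either way, as it did for 93.2% of all genes. For 27 it lay within a 1.5-fold change, against 67.9% of all genes. The 2 genes whose intervals reach beyond a 2-fold change were Got1 and Acmsd. The number of arrays limits this precision. An exact permutation test of 3 against 3 livers cannot give a two-sided p below 0.1.

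**Figure D1:**
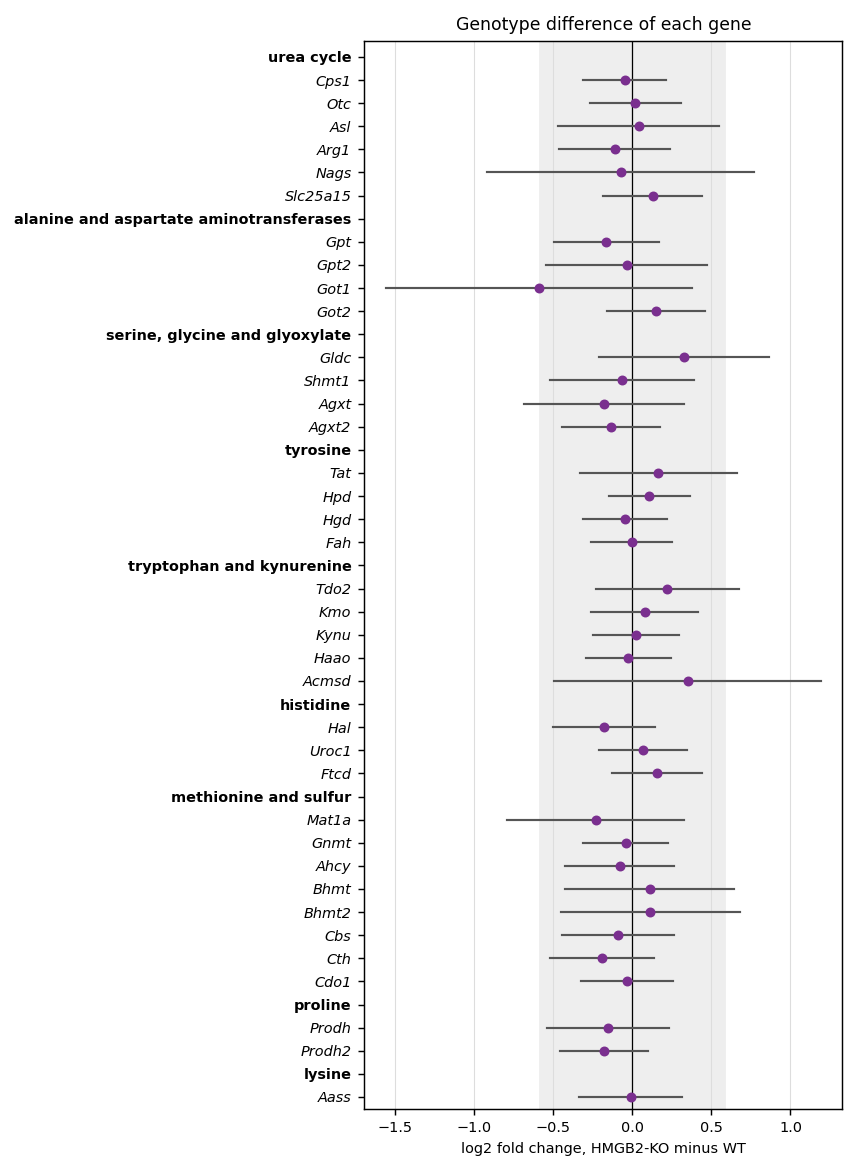
Log2 fold change of each of the 37 genes, HMGB2-KO minus WT (points), with its 95% confidence interval from limma (lines), grouped by pathway; the grey band marks a 1.5-fold change either way. Every interval crosses 0, and the widest belong to Got1, Acmsd and Nags; Otc, Asl, Hpd, Kmo, Kynu, Uroc1, Bhmt and Bhmt2 lie above 0 here and below it with the values as deposited.

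Of the urea cycle genes, 6 of 7 were analysed, 3 higher and 3 lower in HMGB2-KO, or 1 higher with the values as deposited. Their median log2 fold change was -0.01. Cps1, the mitochondrial enzyme that fixes ammonia as carbamoyl phosphate, was among the steadiest genes on the array. It was at 0.00, 0.11 and 0.06 in WT livers and at -0.05, 0.04 and 0.04 in HMGB2-KO livers. The groups overlap, and the log2 fold change was -0.05 (SE 0.11, 95% confidence interval -0.31 to 0.22). Otc, which joins carbamoyl phosphate to ornithine, was at 0.66, 0.82 and 0.82 in WT and at 0.67, 0.86 and 0.84 in HMGB2-KO. Its fold change was 0.02 (SE 0.12), or -0.10 as deposited, with liver 1 the lowest of each genotype.

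Of the cytosolic steps analysed, Asl varied more over the 6 livers (SD 0.29) than Arg1 (SD 0.17). Asl, which splits argininosuccinate into arginine and fumarate, was at 0.46, 0.27 and 0.18 in WT. In HMGB2-KO it was at -0.10, 0.75 and 0.39, so those livers held both the lowest and the highest value, and the fold change was 0.04 (SE 0.22), or -0.08 as deposited. Arg1, the arginase that releases urea, was at 0.26, 0.15 and -0.18 in WT and at -0.11, -0.08 and 0.09 in HMGB2-KO, a fold change of -0.11 (SE 0.15). The mitochondrial ornithine carrier Slc25a15 was at -0.22, 0.09 and 0.07 in WT and at 0.01, 0.15 and 0.16 in HMGB2-KO. WT liver 1 was the lowest, and the fold change was 0.13 (SE 0.13).

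Nags, which makes the N-acetylglutamate that Cps1 needs for activity, varied most of the urea cycle genes. It was at -0.35, -1.54 and -0.42 in WT and at -1.15, -1.09 and -0.28 in HMGB2-KO. Its SD over the 6 livers was 0.52, which stood at 94.9% in the ranking of all genes from the least to the most variable, while the genotype difference was -0.07 (SE 0.36). Low livers were found in both genotypes. Cps1, with an SD of 0.05, and Nags thus stood at opposite ends of the ranking by spread.

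**Figure D2:**
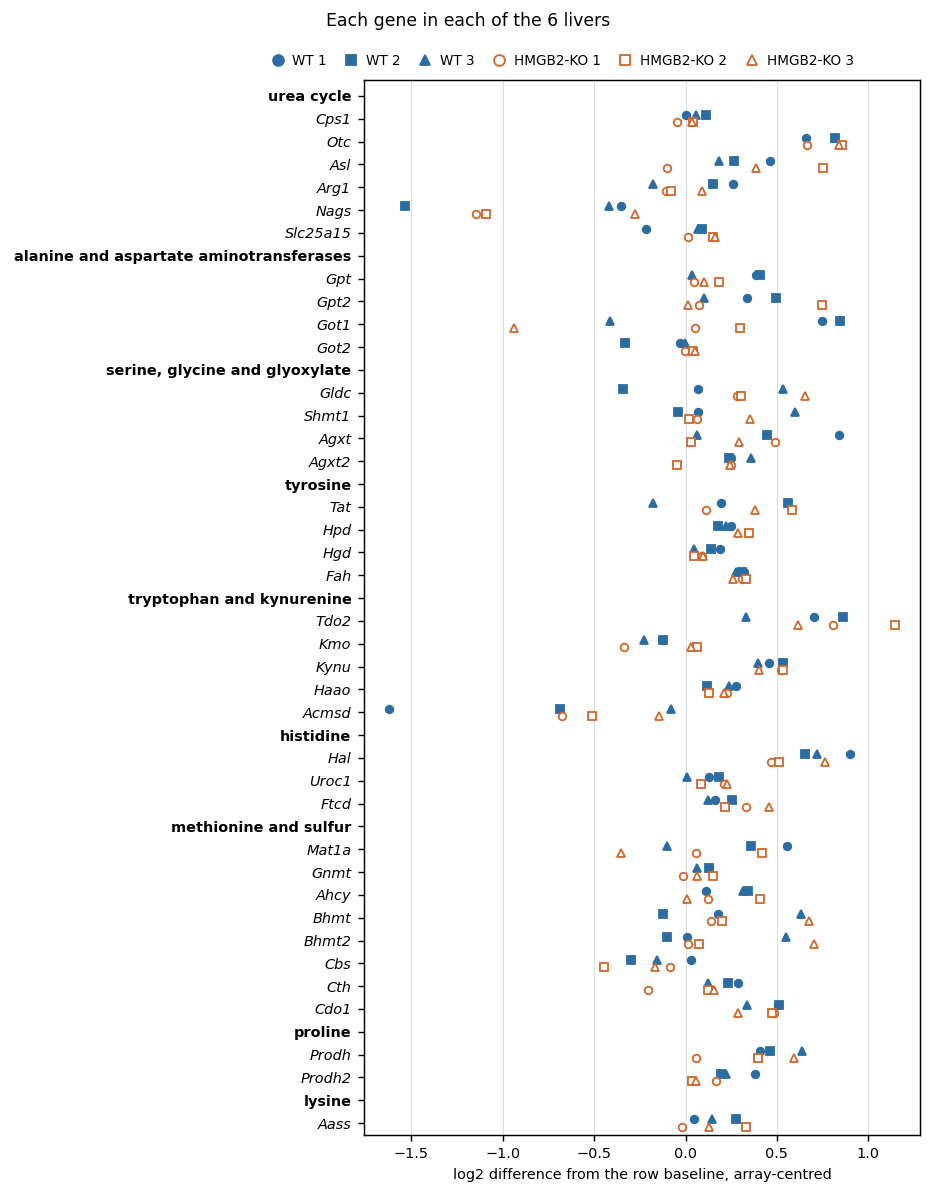
Each point is the value of 1 gene in 1 liver, as the log2 difference from the row baseline after array centring; filled blue marks are WT, open orange marks HMGB2-KO, and circles, squares and triangles are livers 1, 2 and 3. The genotypes overlap in all genes but Got2, Hpd and Prodh2, and Nags, Got1 and Acmsd spread most.

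Got1 showed the largest genotype difference of the 37 genes, and also the largest spread. It encodes the cytosolic aspartate aminotransferase, which moves nitrogen between glutamate and aspartate. Got1 was at 0.75, 0.84 and -0.41 in WT and at 0.05, 0.30 and -0.94 in HMGB2-KO. The liver numbered 3 was far below the others in each genotype, and WT liver 3 lay below HMGB2-KO livers 1 and 2, so the groups overlap. At each replicate number the HMGB2-KO liver was lower than the WT liver. With a block for replicate number the unadjusted p was 0.0035 and the adjusted p 0.922 in limma. The WT mean was 0.39 ± 0.70 (SD, n = 3) and the HMGB2-KO mean -0.20 ± 0.65 (SD, n = 3). The log2 fold change was -0.59 (SE 0.42, 95% confidence interval -1.56 to 0.38), with an adjusted p of 0.994 in limma. Within animals 38 to 41, which leaves out the livers numbered 3, it was -0.62 (SE 0.17, adjusted p = 0.982 in limma). It was -0.99 without WT liver 3, -0.22 without HMGB2-KO liver 3 and -0.37 without WT liver 2.

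The other aminotransferases of alanine and aspartate showed smaller differences. Got2, the mitochondrial partner of Got1, was at -0.03, -0.33 and -0.00 in WT and at -0.00, 0.04 and 0.05 in HMGB2-KO. The genotypes did not overlap, but WT liver 3 and HMGB2-KO liver 1 were practically level, and the distance came from WT liver 2. Its fold change was 0.15 (SE 0.13, adjusted p = 0.994 in limma), and 0.05 without WT liver 2. Gpt, the cytosolic alanine aminotransferase, was at 0.38, 0.41 and 0.04 in WT and at 0.04, 0.18 and 0.10 in HMGB2-KO, a fold change of -0.16 (SE 0.14). Here WT livers 1 and 2 were high and WT liver 3 was level with the lowest HMGB2-KO liver. Gpt2, its mitochondrial counterpart, ran from 0.10 to 0.49 in WT and from 0.01 to 0.75 in HMGB2-KO, a fold change of -0.03 (SE 0.22).

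The genotypes did not overlap for 3 of 37 genes, against 9.67% of all genes. Got2 and Hpd were higher in HMGB2-KO, a direction seen in 4.32% of all genes, and Prodh2 was lower, as were 5.35%. Prodh2, a mitochondrial hydroxyproline dehydrogenase, was at 0.38, 0.20 and 0.22 in WT and at 0.17, 0.04 and 0.06 in HMGB2-KO. WT liver 1 was the highest, and the lowest WT liver lay just above the highest HMGB2-KO liver. The log2 fold change was -0.18 (SE 0.12, 95% confidence interval -0.46 to 0.10). This gene had the smallest p of the 37, 0.178 in limma, with an adjusted p of 0.994, and ranked 3215 among all genes by p. Its relative Prodh, which oxidises proline, was at 0.41, 0.46 and 0.64 in WT and at 0.06, 0.40 and 0.60 in HMGB2-KO, with a fold change of -0.15 (SE 0.17). HMGB2-KO liver 1 was the lowest, and without it the fold change was -0.0053.

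The tyrosine pathway varied little between livers after its first step. Tat, the aminotransferase of that step, is a classical glucocorticoid-induced gene. It was at 0.20, 0.56 and -0.18 in WT and at 0.11, 0.58 and 0.38 in HMGB2-KO, a fold change of 0.17 (SE 0.21), or -0.03 within animals 38 to 41. Hpd, the next enzyme, was at 0.25, 0.18 and 0.22 in WT and at 0.34, 0.35 and 0.28 in HMGB2-KO. The 3 HMGB2-KO livers lay above the 3 WT livers by a small margin, with a fold change of 0.11 (SE 0.11), or -0.01 with the values as deposited. Hgd, which opens the ring of homogentisate, ran from 0.05 to 0.19 over all livers. Fah, which carries out the last step, ran from 0.26 to 0.33 and had the third smallest SD of all genes, 0.03.

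In the tryptophan and kynurenine pathway 4 of 5 genes were higher in HMGB2-KO and 1 lower, or 2 higher with the values as deposited. Tdo2, the dioxygenase that commits tryptophan to this route, was at 0.71, 0.86 and 0.33 in WT and at 0.81, 1.15 and 0.61 in HMGB2-KO. The liver numbered 3 was the lowest in each genotype, and the fold change was 0.22 (SE 0.19), or 0.07 without WT liver 3. Acmsd, which diverts the pathway away from NAD synthesis, was at -1.62, -0.68 and -0.08 in WT and at -0.68, -0.51 and -0.15 in HMGB2-KO. The fold change of 0.35 (SE 0.36) rested on WT liver 1, the lowest by far. It turned to -0.06 without that liver and was 0.71 without WT liver 3. Kmo, Kynu and Haao, the enzymes between Tdo2 and Acmsd, had fold changes of 0.08 (SE 0.14), 0.02 (SE 0.12) and -0.02 (SE 0.12). As deposited, Kmo was at -0.04 and Kynu at -0.10.

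Histidine breakdown gave 2 genes higher and 1 lower. Hal, which removes ammonia from histidine, was at 0.90, 0.66 and 0.72 in WT and at 0.47, 0.51 and 0.76 in HMGB2-KO. HMGB2-KO livers 1 and 2 were the lowest, liver 3 fell among the WT livers, and the fold change was -0.18 (SE 0.14). Ftcd, the folate-linked enzyme at the end of the route, was at 0.16, 0.25 and 0.12 in WT and at 0.33, 0.22 and 0.46 in HMGB2-KO, with a fold change of 0.16 (SE 0.12). Only HMGB2-KO liver 2 overlapped the WT range. Uroc1, the urocanase between them, was at 0.07 (SE 0.12), or -0.05 as deposited.

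Of the 4 serine, glycine and glyoxylate genes analysed, 1 was higher and 3 were lower. Gldc, the decarboxylase of the glycine cleavage system, was at 0.07, -0.34 and 0.53 in WT and at 0.28, 0.30 and 0.65 in HMGB2-KO. The liver numbered 3 was the highest in each genotype, and WT liver 2 was the lowest of all. Its fold change was 0.33 (SE 0.23, adjusted p = 0.994 in limma), 0.55 without WT liver 3 and 0.11 without WT liver 2. Shmt1, which exchanges serine and glycine in the cytosol, was at 0.07, -0.04 and 0.60 in WT and at 0.07, 0.02 and 0.35 in HMGB2-KO, a fold change of -0.06 (SE 0.20). The peroxisomal glyoxylate aminotransferase Agxt ran from 0.06 to 0.84 in WT and from 0.03 to 0.49 in HMGB2-KO, and its fold change was -0.18 (SE 0.22). Its mitochondrial counterpart Agxt2 was at -0.13 (SE 0.13).

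In methionine and sulfur amino acid breakdown 2 of 8 genes were higher and 6 lower, or 8 lower with the values as deposited. Mat1a makes S-adenosylmethionine, the methyl donor of the cell. It was at 0.56, 0.36 and -0.10 in WT and at 0.06, 0.42 and -0.35 in HMGB2-KO. Liver 3 was again the lowest of each genotype, and the fold change was -0.23 (SE 0.24, adjusted p = 0.994 in limma). It was -0.03 without HMGB2-KO liver 3 and -0.42 without WT liver 3. Cth, which makes cysteine from cystathionine, was at 0.29, 0.23 and 0.12 in WT and at -0.20, 0.12 and 0.16 in HMGB2-KO, with a fold change of -0.19 (SE 0.14). HMGB2-KO liver 1 alone lay clearly below the WT range, and without it the fold change was -0.07. Gnmt uses S-adenosylmethionine to methylate glycine, Ahcy releases homocysteine, Cbs turns homocysteine into cystathionine, and Cdo1 oxidises cysteine. These enzymes had fold changes from -0.09 to -0.03, with standard errors from 0.12 to 0.15. Aass, the first enzyme of lysine breakdown, was at -0.01 (SE 0.14).

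Bhmt and Bhmt2 return homocysteine to methionine, Bhmt with betaine as the methyl donor. Bhmt was at 0.18, -0.12 and 0.63 in WT and at 0.14, 0.20 and 0.68 in HMGB2-KO. Bhmt2 was at 0.01, -0.10 and 0.55 in WT and at 0.02, 0.07 and 0.70 in HMGB2-KO. For both genes the livers numbered 3 were the highest, and the genotypes did not differ beyond the spread, with fold changes of 0.11 (SE 0.23) and 0.11 (SE 0.24), or -0.01 and -0.00 as deposited. They are related copies, and the probe sequences were not used here, so how far each row reads its own gene alone is not known. In the RefSeq annotation of GRCm38.p6 they are direct neighbours, and Dmgdh follows directly after Bhmt2. Dmgdh degrades the dimethylglycine that Bhmt leaves. It was at 0.01, -0.23 and 0.43 in WT and at 0.30, 0.29 and 0.57 in HMGB2-KO, so the livers numbered 3 were again the highest.

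The median SD of the 37 genes over the 6 livers was 0.16, against 0.20 for all genes. The group held steady as well as variable genes. By SD, 10 of 37, or 27.0%, were among the 10% of all genes that varied least, namely Fah, Cps1, Hgd, Gnmt, Haao, Kynu, Hpd, Uroc1, Otc and Cdo1. Among the 10% that varied most were 3, Got1, Acmsd and Nags, and these were also the 3 with a range over 1 on the log2 scale. Spread on an array can depend on brightness, which these values do not hold, and its part in this ranking was not tested.

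**Figure D3:**
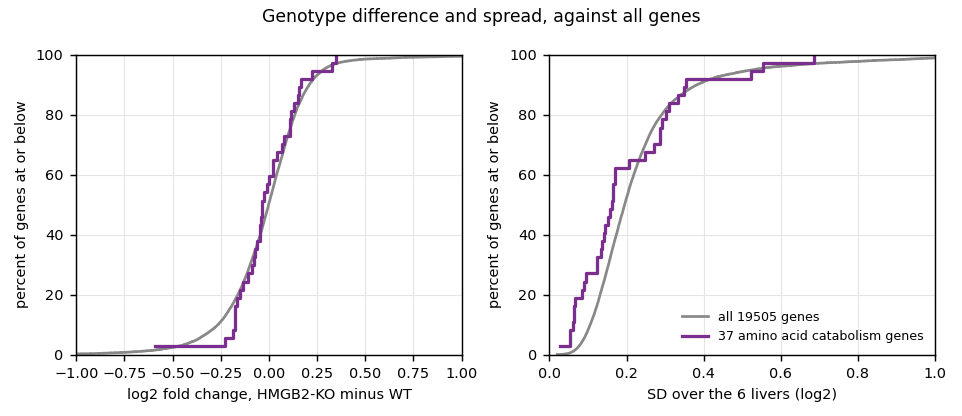
Cumulative distributions of the log2 fold change, HMGB2-KO minus WT (left), and of the SD over the 6 livers (right), for the 37 amino acid catabolism genes (purple) and all 19505 genes (grey); the axes end at 1 log2. The fold changes centre near 0 for both (medians -0.03 and -0.00), and the SDs of the 37 genes have a median of 0.16 against 0.20.

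The livers numbered 3 carry the animal numbers 31 (WT) and 32 (HMGB2-KO), and the others 38 to 41. Those are 38 (WT) and 39 (HMGB2-KO) for the livers numbered 1, and 40 (WT) and 41 (HMGB2-KO) for the livers numbered 2. What these numbers share is not given in the labels. For 12 of the 37 genes both livers numbered 3 lay outside the range of the other 4, against 19.7% of all genes. They were higher for Gldc, Shmt1, Acmsd, Bhmt, Bhmt2 and Prodh, against 10.4% of all genes in that direction. They were lower for Got1, Fah, Tdo2, Kynu, Mat1a and Cdo1, against 9.32%. Under the other scalings the count lay between 9 and 15. It was 9 after quantile normalization, against 20.2% of all genes, and 15 when centred on ribosomal and housekeeping genes, against 23.6%. The count was 19 without WT liver 3 or without HMGB2-KO liver 3. In those comparisons, of 1 liver with 4, 42.7% and 42.1% of all genes did not overlap. The mean of the livers numbered 3 was 1.16 below the others for Got1 and 0.58 below for Mat1a. It lay above the others by 0.56 for Bhmt, 0.63 for Bhmt2, 0.51 for Gldc and 0.45 for Shmt1.

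The sequences before the start sites of 5 of these genes are shown because they are among the genes that differed between the livers numbered 3 and the others, 4 higher and Got1 lower. They were chosen after their values were seen. Each run holds the 250 bases before the RefSeq start, 5′ to 3′ on the gene's strand, GRCm38.p6. Capitals mark the matches of the motifs named below, on either strand. All 5 genes lie on the minus strand, Bhmt at chr13:93637759-93638008, Bhmt2 at chr13:93674303-93674552, Gldc at chr19:30175442-30175691, Shmt1 at chr11:60811266-60811515 and Got1 at chr19:43524606-43524855.
Bhmt: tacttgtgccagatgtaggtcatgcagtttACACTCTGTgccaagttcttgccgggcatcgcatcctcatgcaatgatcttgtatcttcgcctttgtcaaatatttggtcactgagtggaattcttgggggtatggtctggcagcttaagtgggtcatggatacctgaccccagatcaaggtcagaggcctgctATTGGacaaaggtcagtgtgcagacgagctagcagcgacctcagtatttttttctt
Bhmt2: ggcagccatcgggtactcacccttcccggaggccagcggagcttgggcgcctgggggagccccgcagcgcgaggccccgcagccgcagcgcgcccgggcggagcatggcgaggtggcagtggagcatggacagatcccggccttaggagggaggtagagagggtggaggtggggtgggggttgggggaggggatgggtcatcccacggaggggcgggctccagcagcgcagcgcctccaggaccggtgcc
Gldc: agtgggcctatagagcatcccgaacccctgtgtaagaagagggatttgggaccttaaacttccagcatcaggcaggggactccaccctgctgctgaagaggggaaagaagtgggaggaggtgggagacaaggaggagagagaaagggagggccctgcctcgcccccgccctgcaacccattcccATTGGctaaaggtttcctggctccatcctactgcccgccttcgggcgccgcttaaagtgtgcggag
Shmt1: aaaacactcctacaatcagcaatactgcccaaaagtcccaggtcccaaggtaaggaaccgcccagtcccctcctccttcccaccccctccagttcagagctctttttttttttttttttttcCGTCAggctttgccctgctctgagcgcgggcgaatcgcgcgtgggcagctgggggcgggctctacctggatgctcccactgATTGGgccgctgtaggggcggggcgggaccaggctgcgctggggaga
Got1: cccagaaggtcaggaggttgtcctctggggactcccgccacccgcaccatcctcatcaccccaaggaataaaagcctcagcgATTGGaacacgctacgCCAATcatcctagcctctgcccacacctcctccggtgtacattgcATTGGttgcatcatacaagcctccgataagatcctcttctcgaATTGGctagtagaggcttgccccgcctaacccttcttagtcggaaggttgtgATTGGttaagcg

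Got1 held 5 matches of the CCAAT box (CCAAT or ATTGG on the other strand), while Bhmt, Gldc and Shmt1 held 1 each and Bhmt2 none. Bhmt also held a match of the glucocorticoid receptor element ACANNNTGT, and Shmt1 a match of TGACG, the core of the cAMP response element (CRE). A window was found for 31 of the 42 listed genes, 33 windows in all. Agxt2 and Slc25a15 have a second start each, and the windows of Agxt2 overlap, so the same sites of Agxt2 are counted in both. The CCAAT box was in 14 of these 33 windows, or 42.4%, against 33.8% of the 32851 promoter windows of the same length in the table. The TATA box TATAAA was in 21.2% against 12.4%, the FOXA letters TATTTA in 18.2% against 12.7%, the glucocorticoid receptor element in 9.09% against 5.84% and TGACG in 12.1% against 17.8%. Counted by gene, TATAAA was in 6 of 31 and TATTTA in 5 of 31. The C/EBP letters TTGCNNCAA, the full CRE TGACGTCA, the D box TTATGTAA and the HNF4 repeat of AGGTCA with 1 A between were in none of the 33. The HNF4 letters CAAAGTCCA were in the windows of Agxt2 alone. TGACGTCA contains TGACG. These are matches of letters only.

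Genes that control amino acid catabolism were read beside the enzymes. Of 19 regulators analysed, 12 were higher and 7 lower in HMGB2-KO (10 higher as deposited). In limma 0 passed the adjusted threshold, as did 0 of all genes, and 0 had an unadjusted p under 0.05, against 3.68% of all genes. Klf15, a glucocorticoid-induced factor that drives amino acid breakdown in fasting, was at 0.79, 1.21 and -0.07 in WT and at 0.97, 1.29 and 0.38 in HMGB2-KO. Cebpb, a cAMP-responsive factor of the same genes, was at -0.37, 0.11 and -0.996 in WT and at 0.12, 0.01 and -0.68 in HMGB2-KO. The hepatocyte factor Hnf4a was at 0.36, -0.10 and -0.41 in WT and at 0.07, 0.49 and -0.24 in HMGB2-KO. For these genes, chosen after their values were seen, the livers numbered 3 were the lowest, as for Got1 and Mat1a. Of the 19 regulators 5 were lower without overlap in those livers, against 9.32% of all genes. Higher without overlap were 2 (Sirt5 and Atf4), against 10.4% of all genes, and 12 overlapped. The fold changes of Klf15, Cebpb and Hnf4a were 0.24 (SE 0.35), 0.23 (SE 0.31) and 0.16 (SE 0.25).

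Among the other regulators, the glucagon receptor Gcgr was at 0.09, -0.19 and -0.05 in WT and at 0.16, 0.25 and 0.14 in HMGB2-KO. The genotypes did not overlap, with a fold change of 0.23 (SE 0.13, adjusted p = 0.994 in limma), or 0.11 as deposited. The glucocorticoid receptor Nr3c1 was at 0.21 (SE 0.14) and Cebpa at 0.02 (SE 0.16), or -0.10 as deposited. The coactivator Ppargc1a ran from -0.51 to 0.92 in WT and from -0.27 to 0.81 in HMGB2-KO, with a fold change of 0.33 (SE 0.42).

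**Figure D4:**
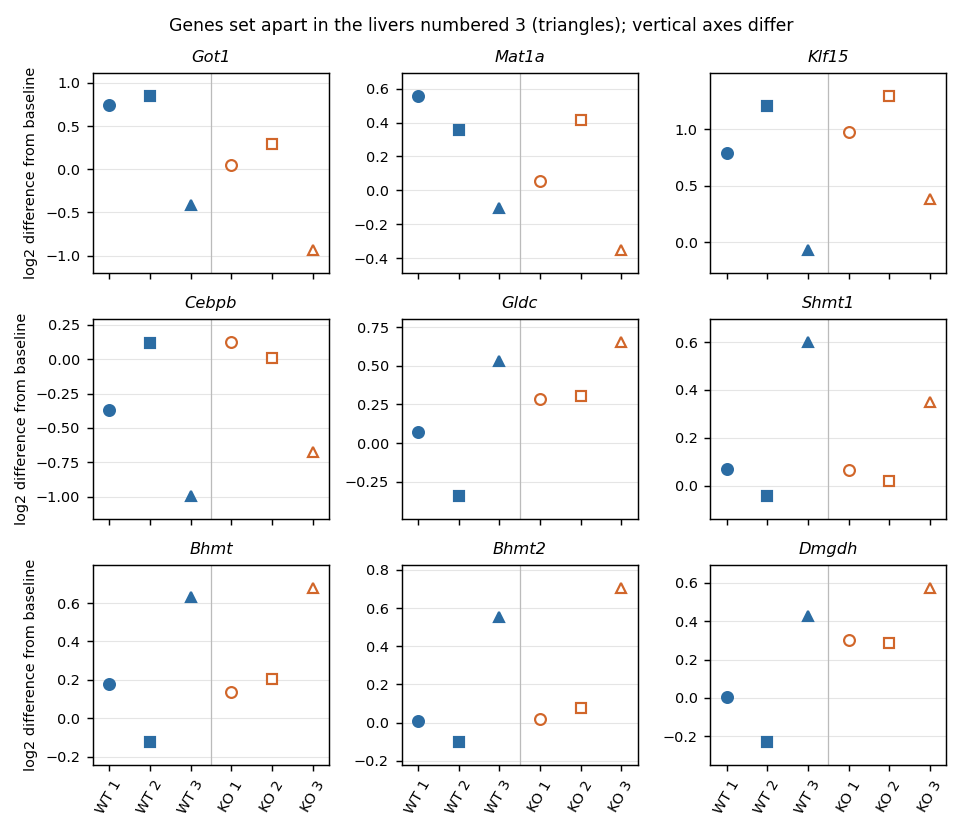
Values of 9 genes in the 3 WT livers (filled blue) and 3 HMGB2-KO livers (open orange, labelled KO), as log2 differences from the row baseline after array centring; each panel has its own vertical axis. The livers numbered 3 (triangles) are the lowest of all 6 for Got1, Mat1a, Klf15 and Cebpb and the highest for Gldc, Shmt1, Bhmt, Bhmt2 and Dmgdh.

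The wider pathway held 130 further genes, of which 118 were analysed. They were 66 higher and 52 lower in HMGB2-KO, with a median of 0.04, or 44 higher and a median of -0.08 as deposited. In limma 0 passed the adjusted threshold and 3 had an unadjusted p under 0.05, against 3.68% of all genes. All 3 encode amino acid carriers. Slc16a10, an exporter of aromatic amino acids, was at -0.00, 0.07 and 0.03 in WT and at 0.51, 0.57 and 0.28 in HMGB2-KO. The log2 fold change was 0.42 (SE 0.13, adjusted p = 0.994 in limma), or 0.30 as deposited, with no overlap of the genotypes. Slc7a8, a neutral amino acid exchanger, was at -0.17, -0.07 and -0.04 in WT and at 0.57, 0.10 and 0.17 in HMGB2-KO, a fold change of 0.38 (SE 0.15). The cystine carrier Slc7a11, a target of ATF4, was at -0.00, -0.05 and 0.11 in WT and at -0.18, -0.43 and -0.34 in HMGB2-KO, a fold change of -0.34 (SE 0.13).

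Markers of zones and of other cells were read in the same livers, and in whole tissue fewer cells of a type and less RNA per cell cannot be told apart. Secreted hepatocyte proteins had 17 of 19 genes higher, with a median of 0.06, or 3 higher and -0.06 as deposited. By liver their median was -0.00, -0.24 and 0.01 in WT and 0.04, -0.02 and 0.03 in HMGB2-KO. Only WT liver 2 thus lay clearly apart. Periportal markers other than the 37 genes had 9 of 10 higher, and 9 as deposited. Their median per liver ran from 0.14 to 0.39 in WT and from 0.32 to 0.57 in HMGB2-KO, while the urea cycle genes ran from 0.06 to 0.13 and from -0.08 to 0.12. Pericentral markers had 4 of 10 higher, or 1 as deposited. Oat, the pericentral ornithine aminotransferase, was at -0.03, -0.40 and -1.0 in WT and at -0.67, -0.76 and -0.85 in HMGB2-KO. Kupffer cell markers had 11 of 11 higher, or 9 as deposited, with medians per liver of 0.15 to 0.40 in WT and 0.41 to 0.60 in HMGB2-KO. Cholangiocyte markers had 2 of 8 higher and 6 lower, or 1 higher as deposited. The levels hold no zero, so whether any marker is absent cannot be read. The part of these markers in the values of the enzymes was not tested.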

How the data were processed

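Total RNA of each liver was labelled with biotin and read on 1 array, per the labels' protocols. The authors deposited 1 value per row and liver, taken here as log2, from -8.60 to 6.93; the labels name no summarization, normalization or row baseline. Of 22206 rows, 19572 had 1 gene symbol in the platform annotation, 0 had several and 2634 are unnamed here; a gene on more than 1 row (55 genes) was read from its row of highest mean. The median of every array was set to 0, and all 19505 genes were fitted with limma 3.58.1 in R 4.3.3 (genotype only, eBayes, Benjamini-Hochberg over all genes). The fit was tested on simulated data. Exact two-sided permutation tests of the difference of means were also run for single genes, and their p-values are not printed here. Genes described in full had the 8 smallest p, no overlap of genotypes or the 5 largest SDs among the 37, and others were chosen by role or after their values were seen. The members and lists were chosen with earlier results of these data known. Alternatives were other scalings, blocks, weights, moderation and leaving out each liver. Promoters came from RefSeq, GRCm38.p6. The planned comparison of protein sequences was not made.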

Additional observations from a re-analysis of the deposited data

How the results depend on the processing

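The adjusted count of 0 of 37 held under all 18 alternatives run. No gene of the whole array passed in any of them either, so this count is not particular to the 37. The precision is limited by 3 arrays a group. The main fit did not pair livers by replicate number, because the labels do not say what the numbers share. The deviations of same-numbered livers correlated at 0.04, 0.13 and 0.29. HMGB2-KO livers 2 and 3 correlated best with the WT liver of their number, and HMGB2-KO liver 1 with WT liver 2. With the replicate block, 1 of the 37 genes had an unadjusted p under 0.05 (Got1, adjusted p = 0.922 in limma), as did 7 other pathway genes and 4.40% of all genes, and no call after adjustment changed. With a term for animals 31 and 32 these counts were 1 and 5 (4.19% of all genes), within animals 38 to 41 they were 1 and 6 (3.78%), and without moderation 1 of the 37 passed (Hpd, 4.29%). Of other pathway genes 1 passed as deposited (4.85% of all genes) and 1 when centred on secreted proteins (4.52%). The median fold change of the 37 was -0.15 as deposited, -0.13 centred on secreted hepatocyte proteins and -0.12 centred on ribosomal and housekeeping genes. As deposited 7 were higher, and within animals 38 to 41, 14 had no overlap, against 32.8% of all genes. Leaving out 1 liver gave 4 to 12 genes without overlap, against 17.9% to 21.8% of all genes. It gave 0 to 2 with an unadjusted p under 0.05 and 1 to 7 such pathway genes, against 3.08% to 4.84%, and 12 to 19 whose livers numbered 3 stood apart, against 25.9% to 42.7%.

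Several small fold changes turned sign. The first 3 scalings named here move all genes by the same amount, and for the others the cause was not tested. As deposited, these were Asl -0.078, Bhmt -0.0086, Bhmt2 -0.0049, Cebpa -0.095, Hpd -0.010, Kmo -0.039, Kynu -0.096, Otc -0.097 and Uroc1 -0.051. Centred on secreted proteins, these were Asl -0.059, Cebpa -0.076, Kmo -0.019, Kynu -0.076, Otc -0.078 and Uroc1 -0.031. Centred on ribosomal and housekeeping genes, these were Asl -0.041, Cebpa -0.057, Kmo -0.0011, Kynu -0.058, Otc -0.060 and Uroc1 -0.013. After quantile normalization, these were Aass 0.024, Cdo1 0.011, Fah 0.040 and Haao 0.0028. With array weights, these were Aass 0.033, Cebpa -0.0086 and Gpt2 0.0030. Within animals 38 to 41, these were Ahcy 0.036, Asl -0.041, Fah 0.0057, Kmo -0.0085, Shmt1 0.029, Tat -0.032 and Uroc1 -0.0069.

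With 1 liver left out, 17 of the 37 genes turned direction in at least 1 fit and 20 did not. The fold changes of 35 moved by over 1.5 times in at least 1 fit. The lowest and highest fold changes were -0.10 and 0.073 for Aass, -0.063 and 0.71 for Acmsd, -0.37 and 0.017 for Agxt, -0.19 and 0.0067 for Ahcy, -0.16 and 0.26 for Asl, -0.067 and 0.31 for Bhmt, -0.11 and 0.31 for Bhmt2 and -0.17 and 0.016 for Cbs. They were -0.093 and 0.028 for Cdo1, -0.083 and 0.11 for Cebpa, -0.055 and 0.50 for Cebpb, -0.017 and 0.019 for Fah, -0.27 and 0.098 for Gpt2, -0.071 and 0.0093 for Haao and -0.031 and 0.37 for Hnf4a. For the rest they were -0.12 and 0.52 for Klf15, -0.0095 and 0.065 for Kynu, -0.45 and 0.14 for Nags, -0.032 and 0.081 for Otc, -0.19 and 0.13 for Shmt1, -0.057 and 2.09 for Srr and -0.020 and 0.35 for Tat.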

Other observations

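Some steps outside the 37 enzymes differed by more than most of them, with an adjusted p of 0.994 each in limma. Those named here were chosen by their values, for a small unadjusted p in their lists. They come from 118 genes, of which 66 were higher and 52 lower in HMGB2-KO. Of those named, only Mccc1 and Dao had no overlap of the genotypes. Among all 118, 8 had no overlap, against 9.67% of all genes. Ido2, a second tryptophan dioxygenase, had a log2 fold change of 0.41, Ppm1k, the phosphatase that activates branched-chain ketoacid dehydrogenase, 0.36, and Mccc1, a leucine-breakdown carboxylase subunit, 0.31. Gcdh, of lysine and tryptophan breakdown, was at 0.18 and Dao, the D-amino acid oxidase, at 0.24. Gclc, which starts glutathione synthesis from cysteine, was at 0.54, but 0.17 without WT liver 2 and up to 0.77 with another liver left out. With 1 liver left out Dao ran from 0.10 to 0.33, Mccc1 from 0.19 to 0.40, Ido2 from 0.29 to 0.61, Ppm1k from 0.26 to 0.53 and Gcdh from 0.13 to 0.25. Srr, the serine racemase, was at 1.31, but this rested on WT liver 1, at -3.84, and was -0.06 without it.

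Counts of higher genes in other groups moved with the scaling. Branched-chain genes were 13 of 21 higher with a median of 0.03, or 4 as deposited. Amino acid carriers were 12 of 18 higher with 0.09, or 8, and ATF4 targets 9 of 14 with 0.10, or 7. Other tryptophan and lysine steps were 6 of 10 higher with 0.15, or 5, and other methionine and sulfur steps 7 of 10 with 0.15, or 6. Other histidine and folate one-carbon genes were 0 of 6 higher under both, with a median of -0.05. Sinusoidal endothelial markers were 6 of 10 higher with 0.07, or 4 as deposited. Stellate cell and fibroblast markers were 7 of 10 higher with 0.02, or 2, and lymphocyte markers 8 of 9 with 0.05, or 3. Red blood cell markers were 0 of 2 higher under both, with a median of -0.15. Kidney and exocrine pancreas markers were 4 of 7 higher with 0.04, or 3.

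HMGB2-KO liver 2 was the highest of the 6 livers for 12 of the 37 genes, against 15.4% of all genes, and HMGB2-KO liver 1 for 0, against 14.3%. With the values as deposited the first count was 1, and after quantile normalization the second was 3.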
